A study of Homo sapiens with 9 samples.

Results

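The 10 genes described here encode the DNA-binding subunits of the transcription factor NF-kappaB (NFKB1, NFKB2, RELA, RELB and REL) and proteins that restrain or otherwise regulate it (NFKBIA, NFKBIE, NFKBIZ, TNFAIP3 and BIRC3). They were chosen by Ensembl ID, and all 10 were found among the 19569 gene IDs of the footprint count table. The data are ribosome profiling libraries, in which the short mRNA fragments protected by translating ribosomes are sequenced, so a gene's count depends on the amount of its mRNA as well as on how often that mRNA is translated. The cells were Jurkat clone E6-1, a single leukaemic T lymphoblast clone. Resting control cells were set beside cells taken 5 h and 12 h after activation, in 3 libraries per time that the labels call biological replicates. All resting libraries are labelled 0 h, and none holds unstimulated cells kept for 5 h or 12 h. Activation and time in culture therefore cannot be told apart. For activation the cells were kept on wells coated with anti-CD3 antibody (10 µg/mL) in medium with anti-CD28 antibody (5 µg/mL), which engages the T cell receptor complex and its costimulatory receptor. The series title names repression by miRNAs during T cell activation, and mRNA levels were not used here.

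In resting cells NF-kappaB dimers are held in the cytoplasm by IkappaB proteins. Signals from the T cell receptor and CD28 activate a kinase complex that marks IkappaB for destruction, which frees the dimers to enter the nucleus and switch on target genes. Several of those targets are the pathway's own subunits and inhibitors, so the pathway is a textbook case of induced negative feedback.

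Library totals ran from 4343515 to 18506509 counts, with the lowest in 12 h replicate 2 and the highest in 5 h replicate 3. Of all IDs, 13920 passed the low-count filter, all 10 of these genes included. The 10 genes together took 0.0359%, 0.0354% and 0.0361% of the counts in the resting libraries, 0.195%, 0.169% and 0.182% at 5 h, and 0.0819%, 0.0807% and 0.0851% at 12 h. The groups did not overlap in this share, which was lowest at rest and highest at 5 h. Levels below are CPM, counts per library scaled for depth with TMM factors. Each library pools a whole culture, so more responding cells and more footprints per cell cannot be told apart. No other ID had the same counts as any of these genes in every library. Levels are compared only within a gene, and ratios between genes only across groups, because transcript lengths were not used here.

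The DNA around the transcription starts of these genes is shown first, as a description. RefSeq promoter windows (GRCh38.p14), from 250 bases before to 50 after a start, were held for 8 of the 10 genes, all except RELB and NFKBIE, some with several starts. They were searched on both strands for a fixed 10-base form of the kappaB consensus motif, which NF-kappaB dimers recognise. The pattern was GGGRNWYYCC, where R is A or G, N any base, W A or T, and Y C or T. Sites that depart from this pattern were not counted. A match to the pattern was found in 5.91% of all 35116 windows, and 7.09% of the 27305 genes with a window had one at any start. Among the 8 genes, 7 had at least 1 match, in 9 of their 13 windows, and RELA had none in either window. The second listed window of NFKB1 and the first of NFKB2 also held no match. The sequences below run 5′ to 3′ on the strand of the gene, each upstream of a start, with kappaB matches on either strand in capitals. They are shown because they carry matches of 6 genes that rose at 5 h, with stretches of NFKBIZ and RELA, which did not pass the test, beside them. The NFKB2 stretch lies before its second listed start and leaves out other matches of that gene, at 78 to 69 bases before the same start and at 176 to 167 and 21 to 12 bases before the third.
NFKBIA (chr14:35404750-35404869, minus strand): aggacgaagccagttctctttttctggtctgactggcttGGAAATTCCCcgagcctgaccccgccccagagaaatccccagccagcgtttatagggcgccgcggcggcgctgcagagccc
TNFAIP3 (chr6:137867139-137867258, plus strand): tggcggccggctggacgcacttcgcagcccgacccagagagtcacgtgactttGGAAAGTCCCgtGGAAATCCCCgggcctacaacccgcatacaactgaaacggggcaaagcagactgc
BIRC3 (chr11:102317264-102317363, plus strand): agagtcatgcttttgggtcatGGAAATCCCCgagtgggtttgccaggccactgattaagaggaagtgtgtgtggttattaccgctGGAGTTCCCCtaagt
NFKB1 (chr4:102501239-102501358, plus strand): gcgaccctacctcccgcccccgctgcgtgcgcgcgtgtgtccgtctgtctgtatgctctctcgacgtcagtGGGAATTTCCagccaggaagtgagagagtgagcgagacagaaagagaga
REL (chr2:60881454-60881573, plus strand): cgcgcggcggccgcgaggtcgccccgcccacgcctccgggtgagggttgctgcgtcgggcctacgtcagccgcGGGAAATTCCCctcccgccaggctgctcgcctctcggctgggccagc
NFKB2 (chr10:102394463-102394492, plus strand): aacgtcatGGGAATTCCCCcctccgggggg
NFKBIZ (chr3:101827750-101827809, plus strand): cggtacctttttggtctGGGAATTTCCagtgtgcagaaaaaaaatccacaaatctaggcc
RELA (chr11:65663858-65663977, minus strand): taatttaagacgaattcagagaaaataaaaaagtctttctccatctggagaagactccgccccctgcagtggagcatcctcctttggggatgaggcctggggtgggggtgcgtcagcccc

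The NFKBIA match lay 81 to 72 bases before the start, and the pair in TNFAIP3 lay at 67 to 58 and 55 to 46 bases before it. The BIRC3 matches were farther out, at 199 to 190 and 135 to 126 bases before the start. A match shows that these letters are present in the window, and says nothing by itself about binding in these cells. Whether the matches bear on the changes in footprints was not tested. NFKBIZ had matches at both of its starts and did not pass the test. The map of motif positions shows all 13 windows.

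**Figure D1:**
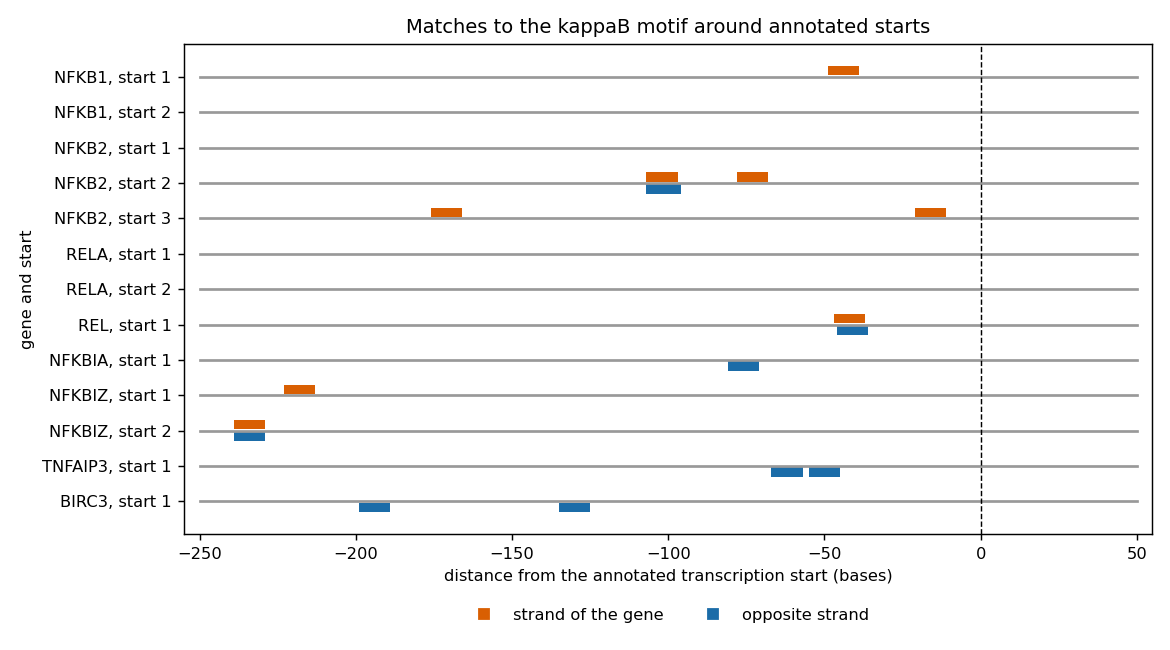
Positions of kappaB motif matches (boxes) in the 13 RefSeq windows of 8 genes, with distance from the annotated transcription start in bases on the x axis and one row per start; orange boxes above a line are on the strand of the gene and blue boxes below it on the opposite strand. The 2 RELA windows hold no match, and those of the other 7 genes include 9 with a match.

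At 5 h the footprints of 8 of the 10 genes rose, and none fell. RELB rose by 29.6-fold, BIRC3 by 13.6-fold, NFKB2 by 10.3-fold and NFKBIA by 7.55-fold, followed by TNFAIP3 at 6.23-fold, NFKB1 at 4.85-fold, REL at 3.64-fold and NFKBIE at 1.96-fold. RELA and NFKBIZ did not pass the test. Over all tested IDs 16.0% rose at 5 h by the same test (edgeR's quasi-likelihood test, adjusted p under 0.05). Called rises had a fitted fold above 4 for 6 of the 10 genes and for 2.60% of tested IDs. This is a cut on the fitted value and not a test against 4-fold. The median log2 fold change was 2.46 for the 10 genes and 0.07 for all tested IDs. The genes were chosen with earlier results of these data known. Comparisons with all tested IDs, here and below, are therefore given only as a description.

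At 12 h 7 of the 10 were still higher than at rest, and the remaining 3 (RELA, NFKBIE and NFKBIZ) did not pass. Over all tested IDs 15.8% rose at 12 h against rest. The changes were smaller than at 5 h, with 3 of the 10 genes called at a fitted fold above 4, against 1.86% of tested IDs. The 95% intervals of NFKB2 (3.72 to 5.83) and TNFAIP3 (3.85 to 5.16) included 4, and that of RELB (8.60 to 16.2) did not. The median log2 fold change was 0.82 for the 10 genes and 0.04 for all tested IDs. Both comparisons use the same resting libraries, so they are not independent.

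Set against 5 h directly, 8 of the 10 fell at 12 h and none rose, while 13.5% of all tested IDs fell. The median log2 fold change was -1.03 for the 10 genes and -0.05 for all tested IDs. This comparison shares the 5 h libraries with that of 5 h against rest. The libraries themselves were often fully separated. The 5 h libraries lay above all resting ones for 8 of the 10 genes, against 23.1% of tested IDs. The 12 h libraries lay above all resting ones for 7, against 22.1%, and below all 5 h ones for 8, against 20.8%.

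**Figure D2:**
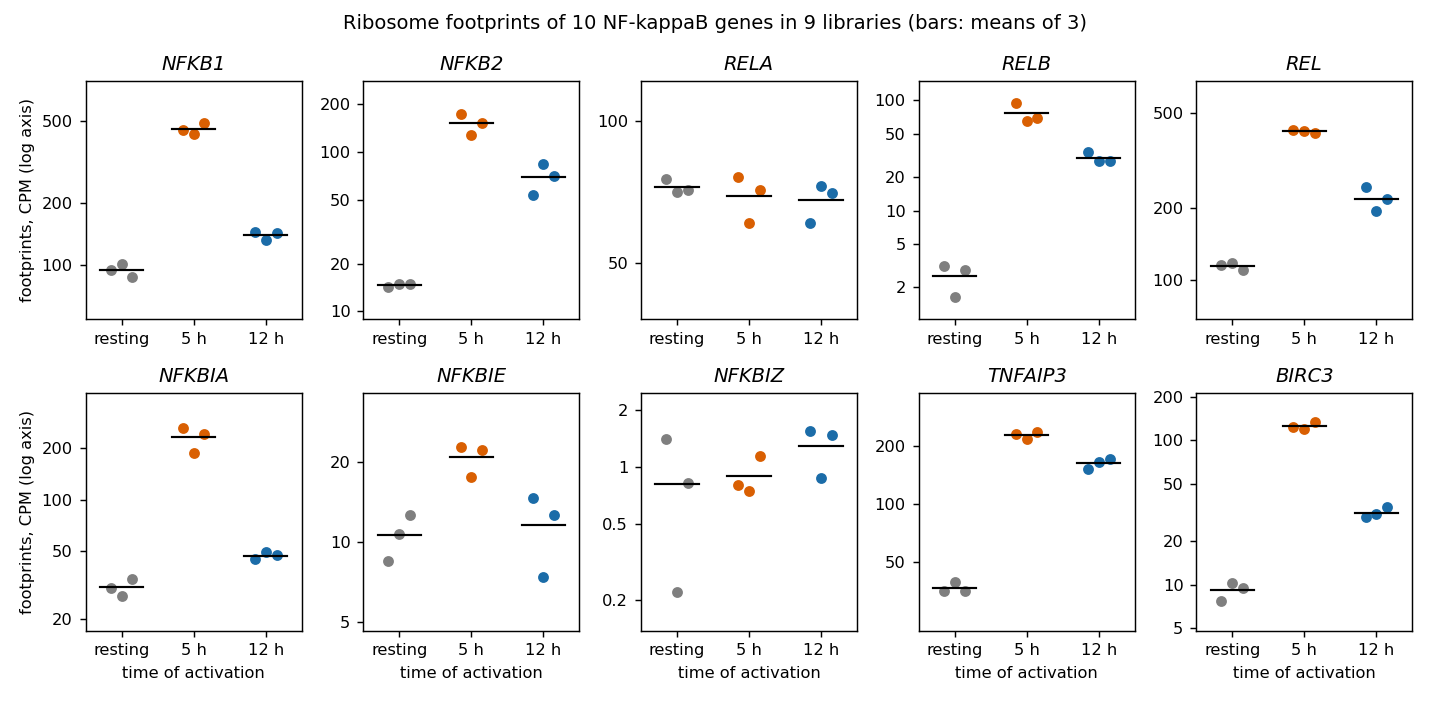
Footprint level of each gene in CPM (log axis, a separate range in each panel) in resting cells and at 5 h and 12 h of activation; points are libraries and bars are means of 3. RELB averages 2.56 CPM at rest, 76.3 at 5 h and 30.2 at 12 h, while RELA averages 72.6, 69.4 and 68.0.

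RELA (ENSG00000173039.19) encodes the subunit that carries a strong activation domain and acts in the most familiar NF-kappaB dimer. It had 75.5, 70.8 and 71.5 CPM in the resting libraries, 76.2, 60.6 and 71.3 at 5 h, and 60.8, 72.9 and 70.3 at 12 h. The 3 groups overlapped. The fitted log2 fold change was -0.07 at 5 h, with a 95% confidence interval from -0.30 to 0.17, and -0.10 at 12 h, with an interval from -0.34 to 0.14 (edgeR adjusted p = 0.693 and 0.548). On the linear scale the interval at 5 h covers 0.810 to 1.13 times the resting level, so a small change in either direction could not be seen.

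RELB (ENSG00000104856.14), which pairs mainly with the NFKB2 product in the non-canonical branch of the pathway, had the largest fold among the 10. It had 3.14, 1.65 and 2.90 CPM in the resting libraries, from 27, 15 and 28 counts. At 5 h it had 93.9, 65.6 and 69.6 CPM, and at 12 h 34.1, 28.2 and 28.2 CPM. The 3 groups were fully separated, with 12 h between rest and 5 h. Its log2 fold change at 5 h was 4.89 ± 0.21 (SE, edgeR adjusted p = 1.79e-14), the 66th highest of the 13920 tested. At 12 h it was 3.56 ± 0.22 against rest, the 106th highest, and -1.33 ± 0.16 against 5 h (edgeR adjusted p = 1.12e-11 and 1.41e-06).

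NFKB2 (ENSG00000077150.20) encodes a precursor protein that is processed to a short DNA-binding subunit and, until then, acts as an inhibitor. It had 14.3, 14.9 and 14.9 CPM in the resting libraries, 175, 129 and 152 at 5 h, and 53.8, 83.9 and 70.7 at 12 h. Resting libraries were close together, and the 3 groups did not overlap. The log2 fold change was 3.36 ± 0.16 at 5 h and 2.22 ± 0.16 at 12 h against rest, and -1.14 ± 0.14 for 12 h against 5 h (SE, edgeR adjusted p = 4.06e-14, 1.14e-10 and 9.90e-07).

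NFKB1 (ENSG00000109320.13) encodes the corresponding precursor of the canonical branch. Its level was 95.3, 102 and 87.5 CPM in the resting libraries, 452, 437 and 491 at 5 h, and 145, 133 and 144 at 12 h. The order of groups was the one seen for NFKB2, but the 12 h libraries lay nearer to rest. Its log2 fold change was 2.28 ± 0.09 at 5 h (SE, edgeR adjusted p = 3.49e-15). At 12 h it was 0.58 ± 0.09 against rest and -1.70 ± 0.09 against 5 h (edgeR adjusted p = 2.47e-05 and 1.73e-12).

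REL (ENSG00000162924.15) encodes the subunit c-Rel, prominent in lymphocytes and known for its part in IL2 transcription. Its libraries had 115, 118 and 110 CPM at rest, 423, 421 and 409 at 5 h, and 244, 194 and 219 at 12 h. The spread at 5 h was narrow, with a coefficient of variation of 1.79% over 3 libraries, and the groups did not overlap. The log2 fold change was 1.87 ± 0.09 at 5 h and 0.94 ± 0.09 at 12 h against rest, and -0.93 ± 0.09 for 12 h against 5 h (SE, edgeR adjusted p = 1.38e-13, 2.50e-08 and 3.89e-08).

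Among the inhibitors, NFKBIA (ENSG00000100906.11) encodes IkappaBalpha, the classical inhibitor that is destroyed on stimulation and whose gene NF-kappaB itself switches on. It had 30.2, 27.3 and 34.3 CPM in the resting libraries, 264, 186 and 243 at 5 h, and 44.8, 49.0 and 47.1 at 12 h. All 5 h libraries lay far above the rest, and the 12 h libraries lay above the resting ones by a small margin. The log2 fold change was 2.92 ± 0.13 at 5 h and 0.61 ± 0.13 at 12 h against rest (SE, edgeR adjusted p = 2.35e-14 and 0.000876). From 5 h to 12 h it fell by 2.30 on the log2 scale (SE 0.13, edgeR adjusted p = 3.60e-12), the 95th lowest value of the 13920 tested.

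NFKBIE (ENSG00000146232.17) encodes IkappaBepsilon, a second cytoplasmic inhibitor known to act with delay in mouse fibroblasts. It had 8.50, 10.8 and 12.6 CPM at rest, 22.9, 17.6 and 22.4 at 5 h, and 14.7, 7.44 and 12.6 at 12 h. The 5 h libraries were above all others, and the resting and 12 h libraries overlapped. Its log2 fold change was 0.97 ± 0.23 at 5 h (SE, edgeR adjusted p = 0.00158). At 12 h it was 0.16 against rest, with an interval from -0.33 to 0.65, and -0.81 ± 0.23 against 5 h (edgeR adjusted p = 0.640 and 0.00933). The fall from 5 h did not pass without 5 h replicate 3, at an adjusted p of 0.0534, or without 12 h replicate 2, at 0.0583, by the same edgeR test.

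NFKBIZ (ENSG00000144802.11) encodes a nuclear IkappaB protein that acts as a cofactor for selected targets. It had only 12, 2 and 8 counts in the resting libraries, 8, 10 and 21 at 5 h, and 18, 4 and 11 at 12 h. In CPM its libraries lay between 0.220 and 1.54, and the groups overlapped. No comparison passed, and at this depth the intervals were wide: against rest the fold at 5 h lay between 0.349 and 3.55 and at 12 h between 0.499 and 5.26. A change of the size seen for NFKBIE was therefore not detectable.

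TNFAIP3 (ENSG00000118503.15) encodes a ubiquitin-editing enzyme that shuts down signalling upstream of the IkappaB kinase. It had 35.3, 39.3 and 35.6 CPM in the resting libraries, 233, 217 and 237 at 5 h, and 153, 167 and 173 at 12 h. The 12 h libraries stayed well above rest and close below those of 5 h, without overlap. The log2 fold change was 2.64 ± 0.10 at 5 h and 2.16 ± 0.10 at 12 h against rest, and -0.48 ± 0.09 for 12 h against 5 h (SE, edgeR adjusted p = 1.51e-15, 8.25e-14 and 0.000358).

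BIRC3 (ENSG00000023445.16) encodes a ubiquitin ligase that serves TNF receptor signalling and holds down the kinase of the non-canonical branch. Its level was 7.69, 10.3 and 9.53 CPM in the resting libraries, 123, 120 and 133 at 5 h, and 29.5, 30.9 and 34.4 at 12 h. The groups were fully separated, and 12 h lay nearer to rest than to 5 h. The log2 fold change was 3.77 ± 0.14 at 5 h and 1.78 ± 0.15 at 12 h against rest, and -1.99 ± 0.13 for 12 h against 5 h (SE, edgeR adjusted p = 8.51e-16, 1.41e-09 and 3.66e-11).

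**Figure D3:**
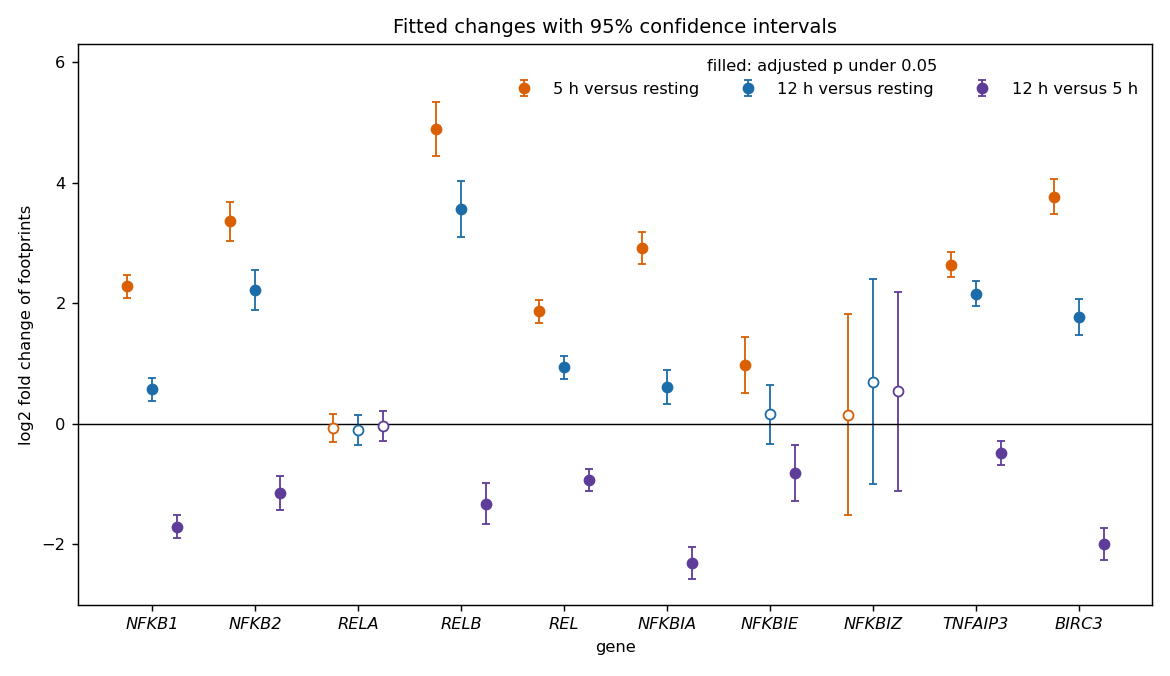
Fitted log2 fold change of each gene (points) with its 95% confidence interval (bars) for 5 h over resting, 12 h over resting and 12 h over 5 h; filled points passed at an adjusted p under 0.05. NFKBIA has 2.92, 0.61 and -2.30 in these comparisons and TNFAIP3 has 2.64, 2.16 and -0.48.

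The genes that rose at 5 h differed in how much of the rise was left at 12 h. As a share of the 5 h gain in mean CPM over rest, 66.2% was left for TNFAIP3, 40.0% for NFKB2, 37.4% for RELB and 34.4% for REL. The share was smaller for BIRC3 at 19.3%, NFKB1 at 12.6% and NFKBIA at 8.16%. No share is given for NFKBIE, whose 12 h libraries lay on both sides of its resting mean. These shares are ratios of group means on the linear scale and were not tested. They depend on that scale. In log2 fold change over rest, RELB went from 4.89 at 5 h to 3.56 at 12 h. NFKB2 went from 3.36 to 2.22 and BIRC3 from 3.77 to 1.78. On the log2 scale RELB thus kept more of its rise than NFKB2, and the order of the other genes was the same.

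**Figure D4:**
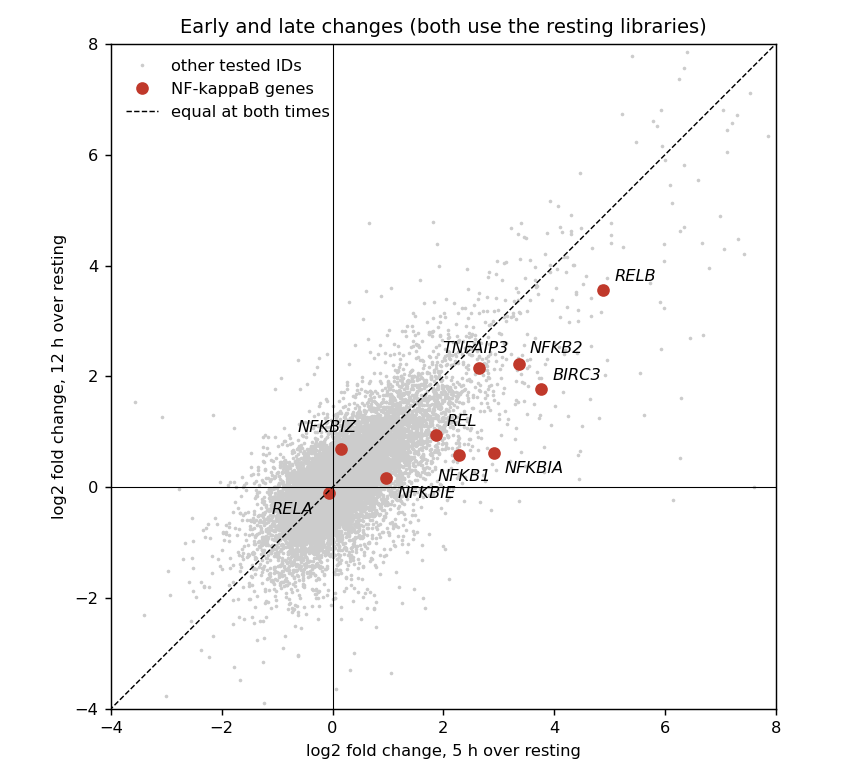
Log2 fold change at 5 h over resting (x axis) against 12 h over resting (y axis) for the 13920 tested IDs (grey) and the 10 genes (red), with a dashed line where both are equal; 18 IDs lie outside the axes, and both axes use the same resting libraries. TNFAIP3 lies close to the line, and NFKBIA and NFKB1 lie far below it.

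Ratios of counts between genes within a library do not depend on how libraries are scaled, so 8 pairs were followed over the 3 groups, chosen by role with these results in view. Transcript lengths were not used, so only the change of a ratio between groups can be read, and not its size. The ratio of TNFAIP3 to NFKBIA counts was 1.17, 1.44 and 1.04 in the resting libraries, 0.881, 1.17 and 0.975 at 5 h, and 3.42, 3.40 and 3.67 at 12 h. Rest and 5 h overlapped, and every 12 h library lay above both. The geometric mean ratio at 12 h was 3.49 times that at 5 h and 2.90 times that at rest. The separation of these inhibitors was thus seen at 12 h and not at 5 h.

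The ratio of NFKBIA to RELA counts, an inhibitor to a subunit, averaged 0.421 ± 0.0509 (SD, n = 3) at rest, 3.32 ± 0.214 at 5 h and 0.693 ± 0.0380 at 12 h. The groups did not overlap. The ratio of RELB to RELA averaged 0.0352 ± 0.0103 at rest, 1.10 ± 0.129 at 5 h and 0.450 ± 0.0962 at 12 h, and that of REL to RELA averaged 1.58 ± 0.0792, 6.08 ± 0.752 and 3.26 ± 0.690. RELB and REL thus gained on RELA at both times, with no overlap with rest.

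Within the precursor pair, NFKB2 to NFKB1 averaged 0.156 ± 0.0126 (SD, n = 3) at rest, 0.330 ± 0.0491 at 5 h and 0.497 ± 0.129 at 12 h. All 6 activated libraries exceeded the resting ones, while the 12 h and 5 h libraries overlapped. The ratio of RELB to NFKB2, the partners of the non-canonical dimer, averaged 0.175 ± 0.0572 at rest, 0.502 ± 0.0398 at 5 h and 0.456 ± 0.156 at 12 h, so that it was higher at both times than at rest and overlapped between 5 h and 12 h. BIRC3 to NFKBIA averaged 0.304 ± 0.0661, 0.553 ± 0.0897 and 0.674 ± 0.0524, and NFKBIE to NFKBIA averaged 0.349 ± 0.0593, 0.0910 ± 0.00403 and 0.250 ± 0.0900. In all, 19 of the 24 ratio comparisons had no overlap. No such share was computed for other gene pairs. RELA and NFKBIA recur among the pairs, so the 19 are not separate observations and partly restate the changes of single genes. Each of the 19 gave a two-sided exact permutation p of 0.1, the smallest that 3 libraries against 3 allow, and 0.126 after Benjamini-Hochberg adjustment over the 24, so none could pass.

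**Figure D5:**
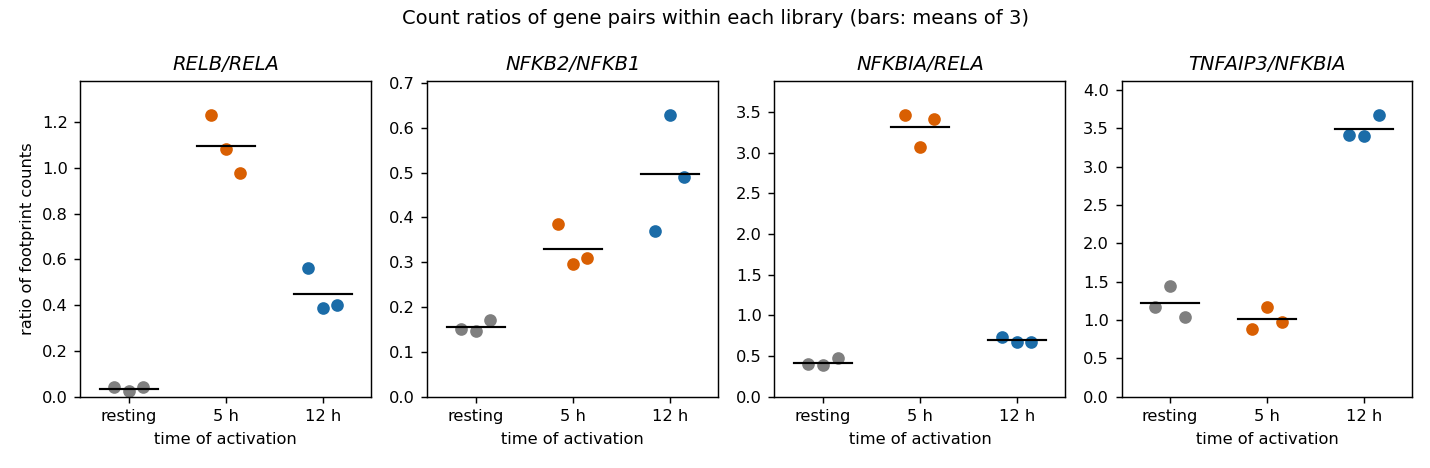
Ratio of footprint counts of 4 gene pairs within each library, at rest, 5 h and 12 h; points are libraries, bars are means of 3, and each y axis starts at 0. TNFAIP3/NFKBIA is between 0.881 and 1.44 at rest and 5 h and at 3.40 to 3.67 at 12 h.

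The course over the 9 libraries was also compared between genes by the Pearson correlation of log2 CPM, which is set largely by the 3 group means and is given as a description with no test. NFKB1 and NFKBIA ran together at 0.988, and NFKB1 was the 11th most similar of 13919 other IDs to NFKBIA. RELB, NFKB2 and TNFAIP3 correlated among themselves at 0.980 to 0.981, at ranks from 34 to 48. REL and BIRC3 correlated at 0.990, at ranks 8 and 13. These sets were not distinct, since NFKB2 and BIRC3 also correlated at 0.968. NFKBIA and TNFAIP3 were less alike, at 0.778. RELA was at -0.31 to -0.08 with the other 9 genes. Outside the 10 genes, the ID closest to NFKBIA was ENSG00000034152.19 at 0.997 and the one closest to RELB was ENSG00000143184.5 at 0.998, both unnamed in the sources used here.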

How the data were processed

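Ribosome footprints were counted in 9 libraries, grouped by the titles in the labels. The deposited count table holds whole-number counts per gene with no normalization. Per the submitters' processing notes, reads were handled with RSEM, Bowtie, cutadapt 3.2, bedtools and DESeq2 on GRCh38.p13, in steps not spelled out. How fragments matching more than 1 gene were counted is likewise not stated. The labels' protocol describes an mRNA kit on total RNA, and the isolation of footprints is not described there. The authors' second table holds log2 values for 11572 IDs, the 10 genes included. They equal log2 of the count divided by 1 factor per library, plus 1, to within 5.03e-09.

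Counts were tested with edgeR 4.0.16 in R 4.3.3 (TMM, filterByExpr, quasi-likelihood test). All 9 libraries were in 1 fit of 13920 IDs, with Benjamini-Hochberg adjustment over all of them within each comparison and a call at an adjusted p under 0.05. The common biological coefficient of variation was 15.6%. SE is the log2 fold change divided by the square root of F. The script was tested on simulated data. Alternatives were other scalings, filters and tests, a replicate block, thinned libraries and leaving out each library (limma 3.58.1, DESeq2 1.42.0). Same-numbered libraries did not deviate together, with correlations of -0.06 to 0.09, so the numbers were not used as pairs. Genes and lists were chosen with earlier results of these data known. The rule for named genes takes all 10 genes, plus the 2 IDs closest in pattern to each, of which the closest to NFKBIA and to RELB are printed. Lists of other pathway genes and cell markers were drawn up by symbol but not analysed here, since the tables used pair no symbols with Ensembl IDs, so the cell type was not checked against markers. Only IDs named by the selection rule carry gene names. Promoter sequences are RefSeq's, from GRCh38.p14.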

Additional observations from a re-analysis of the deposited data

Results flagged for a closer look

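For 8 genes the change from rest differed between the time points, which amounts to 12 h against 5 h, tested with edgeR's quasi-likelihood test. This is the comparison already given in the Results, in which 13.5% of all tested IDs fell. The log2 difference, 12 h minus 5 h, was -1.70 for NFKB1, -1.14 for NFKB2, -1.33 for RELB and -0.93 for REL. Among the other genes it was -2.30 for NFKBIA, -0.81 for NFKBIE, -0.48 for TNFAIP3 and -1.99 for BIRC3. The fall of NFKBIE did not pass in every fit with a library left out. The falls of NFKBIE and TNFAIP3 did not pass the glmTreat test described below.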

How the results depend on the processing

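The number of these genes called was 8 at 5 h against rest, 7 at 12 h against rest and 8 at 12 h against 5 h. With 1 library left out at a time it was 8, 7, and 7 to 8. Against a 1.5-fold change (glmTreat), which asks for more than any change, it was 7, 5 and 6, and over all IDs that test called 1098, 1130 and 617, against 4797, 4887 and 3497. It ended the calls of NFKBIE at 5 h, NFKB1 and NFKBIA at 12 h against rest, and NFKBIE and TNFAIP3 at 12 h against 5 h. The replicate block gave 8, 7 and 8, though same-numbered libraries were not shown to be pairs: 0 of 9 same-numbered pairs correlated above 0.1, and 3 of 9 libraries correlated best with their own number. RLE and upper quartile scaling, DESeq2, limma on the authors' table, both filters, fits of 6 libraries and libraries thinned to the lowest total, an alternative chosen after seeing the data, also gave 8, 7 and 8. NFKBIZ was not tested with at least 50 counts in 3 libraries, in the thinned libraries, or at 5 h against rest in the 6-library fit.

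Directions turned only for values that had not passed. RELA at 5 h was -0.139 to 0.016 (log2) with 1 library left out, above 0 only without 5 h replicate 2. For 12 h against 5 h RELA was 0.014 with limma on the authors' table, and -0.125 to 0.0432 with 1 library left out, above 0 without 5 h replicate 1, 5 h replicate 3 or 12 h replicate 1. NFKBIZ at 5 h was -0.298 to 0.761, below 0 without resting replicate 2 or 5 h replicate 3. NFKBIE at 12 h against rest was -0.0625 to 0.354, below 0 without 12 h replicate 1. The cause of these turns was not tested. Depth limited NFKBIZ most, with 22 counts in all resting libraries.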
